A study of Homo sapiens with 3 samples.

Results

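The genes described here are the histone genes of the clusters on human chromosomes 6 and 1: protein-coding genes named H2AC, H2BC, H3C or H4C with a number, and H1-1 to H1-6. The rule uses symbol and chromosome and not the peaks, but it was set with earlier results of these data known. On chromosomes 1 to 22 and X, 68 of 19970 protein-coding genes met the rule. The set held 6 H1, 17 H2A, 18 H2B, 13 H3 and 14 H4 genes, 55 on chromosome 6 and 13 on chromosome 1. H3K4me3, a trimethylated histone mark of promoters, and H3K27ac, an acetylated mark of active promoters and enhancers, had been profiled by chromatin immunoprecipitation and sequencing in HCC1599, an established human triple-negative breast cancer cell line. The series had 3 samples, 1 H3K4me3 library, 1 H3K27ac library and 1 input library without antibody, all from that 1 line, for which the labels name no treatment and no genetic change. The H3K4me3 antibody came from Cell Signaling Technology and the H3K27ac antibody from Active Motif. The series set out to map both marks in cells it calls MARCO-TST positive. With 1 library per mark there is no replicate check and no test of any difference, and no p-value is given. Read depth is unknown here for both lists, and a gene without a peak is one where none was called.

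Replication-dependent histone genes are short, mostly without introns, and are transcribed as cells copy their DNA. Their messages end in a stem-loop in place of a poly(A) tail, and the clusters gather in a nuclear body with the coactivator NPAT. H2A and H2B genes often stand head to head over a shared promoter. The core histones H2A, H2B, H3 and H4 wrap DNA into nucleosomes and H1 binds the linker between them, so that the marks measured here sit on the product of some of these same genes, H3. Peaks show chromatin and not RNA, so that whether a gene was transcribed in S phase was not measured.

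Most of these genes carried both marks. Of the 68 genes, 57 had an H3K4me3 peak within 1 kb of the gene (83.8%, exact Clopper-Pearson 95% interval 72.9 to 91.6), against 75.5% of all protein-coding genes. An H3K27ac peak lay within 1 kb of 58 genes (85.3%, 74.6 to 92.7), against 73.4% of all protein-coding genes. The same 57 genes had both marks, against 68.2% of all protein-coding genes. The H3K4me3 interval includes the share of all genes, and those for H3K27ac and for both marks lie just above theirs. H2BC3 had H3K27ac only, 10 genes had neither, and no gene had H3K4me3 only. The intervals cover counting error only and are too narrow, because neighbouring genes share peaks.

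Gene length may bear on that comparison, since a longer gene offers more sequence to a peak. Its part was not tested, and short genes may differ from the others in more than length. The median length was 494.5 bp in the histone set and 24190 bp over all protein-coding genes. Among the 60 histone genes of at most 1000 bp, 49 had both marks (81.7%). Among all 524 protein-coding genes of that length, the histone genes included, 20.2% had H3K4me3, 21% had H3K27ac and 18.3% had both. Among the other 464 protein-coding genes of that length, 47 had both marks (10.1%), 57 had H3K4me3 (12.3%) and 60 had H3K27ac (12.9%). The share with both marks was thus nearer to that of genes at large than to that of other genes as short as these.

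The peaks were also wide. The widest H3K4me3 peak at a marked histone gene had a median width of 6686 bp, against 3362 bp over all marked protein-coding genes and 3758 bp over the other short ones. For H3K27ac the medians were 6244 bp at marked histone genes, 2120.5 bp over all marked protein-coding genes and 2193 bp over the other short ones. The authors gave each peak a score whose unit is not stated and on which many peaks share the value 3100. An H3K27ac peak scoring 3100 or above lay at 87.9% of the marked histone genes, against 14.5% of all marked protein-coding genes. For H3K4me3, where that value is common, the shares were 93.0% and 75.4%.

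Few peaks served many genes. The 57 genes with H3K4me3 lay at 36 different peaks, of which 20 were within 1 kb of at least 2 histone genes, and the 58 genes with H3K27ac lay at 40 peaks, 23 of them at 2 or more. Counted by peak, the median width was 4638 bp for H3K4me3, against 1667 bp in the whole list, and 3713 bp for H3K27ac, against 865 bp in the whole list. Both marks lay together. Of the 36 H3K4me3 peaks, 34 (94.4%) overlapped H3K27ac, against 71.0% of the whole list. Of the 40 H3K27ac peaks, 39 (97.5%) overlapped H3K4me3, against 34.8% of the whole list. The whole lists were not limited to peaks near genes, so these comparisons by peak are not between like peaks.

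The genes formed 5 clusters, taken as runs with gaps under 500 kb. The first chromosome 6 cluster, chr6:25726063-26285534 (hg38), ran from H2AC1 to H4C8 with 34 genes in 559 kb. The second, chr6:27132316-27147562, held 5 genes from H2BC11 to H2AC12, and the third, chr6:27807479-27893891, held 16 genes from H2BC13 to H2BC17. On chromosome 1, the first cluster, chr1:149782689-149887965, had 11 genes from H2BC18 to H2AC21. The second, chr1:228457364-228458558, was the pair H2AC25 and H2BC26, which the gene table also lists as H2AW and H2BU1.

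The third chromosome 6 cluster was marked throughout. All 16 of its genes had both marks, against 27 of 34 in the first, 4 of 5 in the second, 8 of 11 in the first chromosome 1 cluster and 2 of 2 in the second. By chromosome this made 47 of 55 genes on chromosome 6 (85.5%, 73.3 to 93.5) and 10 of 13 on chromosome 1 (76.9%, 46.2 to 95), intervals that overlap widely. All 3 chromosome 1 genes with neither mark, H3C14, H3C15 and H4C14, belong to 3 pairs of near-identical copies described further on. Without these 6 genes, 47 of 55 on chromosome 6 (85.5%) and 7 of 7 on chromosome 1 (100%) had both marks, so that the order of the chromosomes turned round. The difference between clusters was not tested, because genes that share peaks are not independent and each mark has 1 library.

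On chromosome 6 the median widths were highest in the third cluster. The widest H3K4me3 peak per marked gene had a median of 9293.5 bp in the third cluster, 4518 bp in the second and 5338 bp in the first. H3K27ac medians were 9259.5 bp in the third cluster, 5571 bp in the second and 4437 bp in the first. Over different peaks, each counted once, the third cluster had medians of 6686 bp for H3K4me3 and 7770 bp for H3K27ac, and the first had 4570 and 3234 bp. On chromosome 1, the widest H3K4me3 peak was wider than the widest H3K27ac peak at each of the 10 marked genes, which share peaks. Medians over all 10 were 7057.5 bp for H3K4me3 and 4286.5 bp for H3K27ac. At H2AC18, H2AC19 and H4C15 the H3K4me3 peak was 7420 bp wide. H3K27ac was called there as peaks of 3220 and 4195 bp with a gap of 16 bp, and the order of the marks depends on that split.

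Marked bases made up much of the compact clusters. In the third chromosome 6 cluster, H3K4me3 peaks covered 48.1% and H3K27ac peaks 53.7% of the sequence between the first and last gene. In the second they covered 53.2% and 45.9%. In the first they covered 18.6% and 21.1%, and without H2AC1 and H2BC1, which stand 290 kb from the next gene, 35.3% and 37.8%. The first chromosome 1 cluster had 17.5% and 14.7%. Over chromosomes 1 to 22 and X, H3K4me3 peaks covered 2.34% and H3K27ac peaks 3.49%. Of the H3K4me3 bases in these 4 clusters 84.3 to 98.6% lay under H3K27ac, against 60.6% over the same chromosomes.

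**Figure D1:**
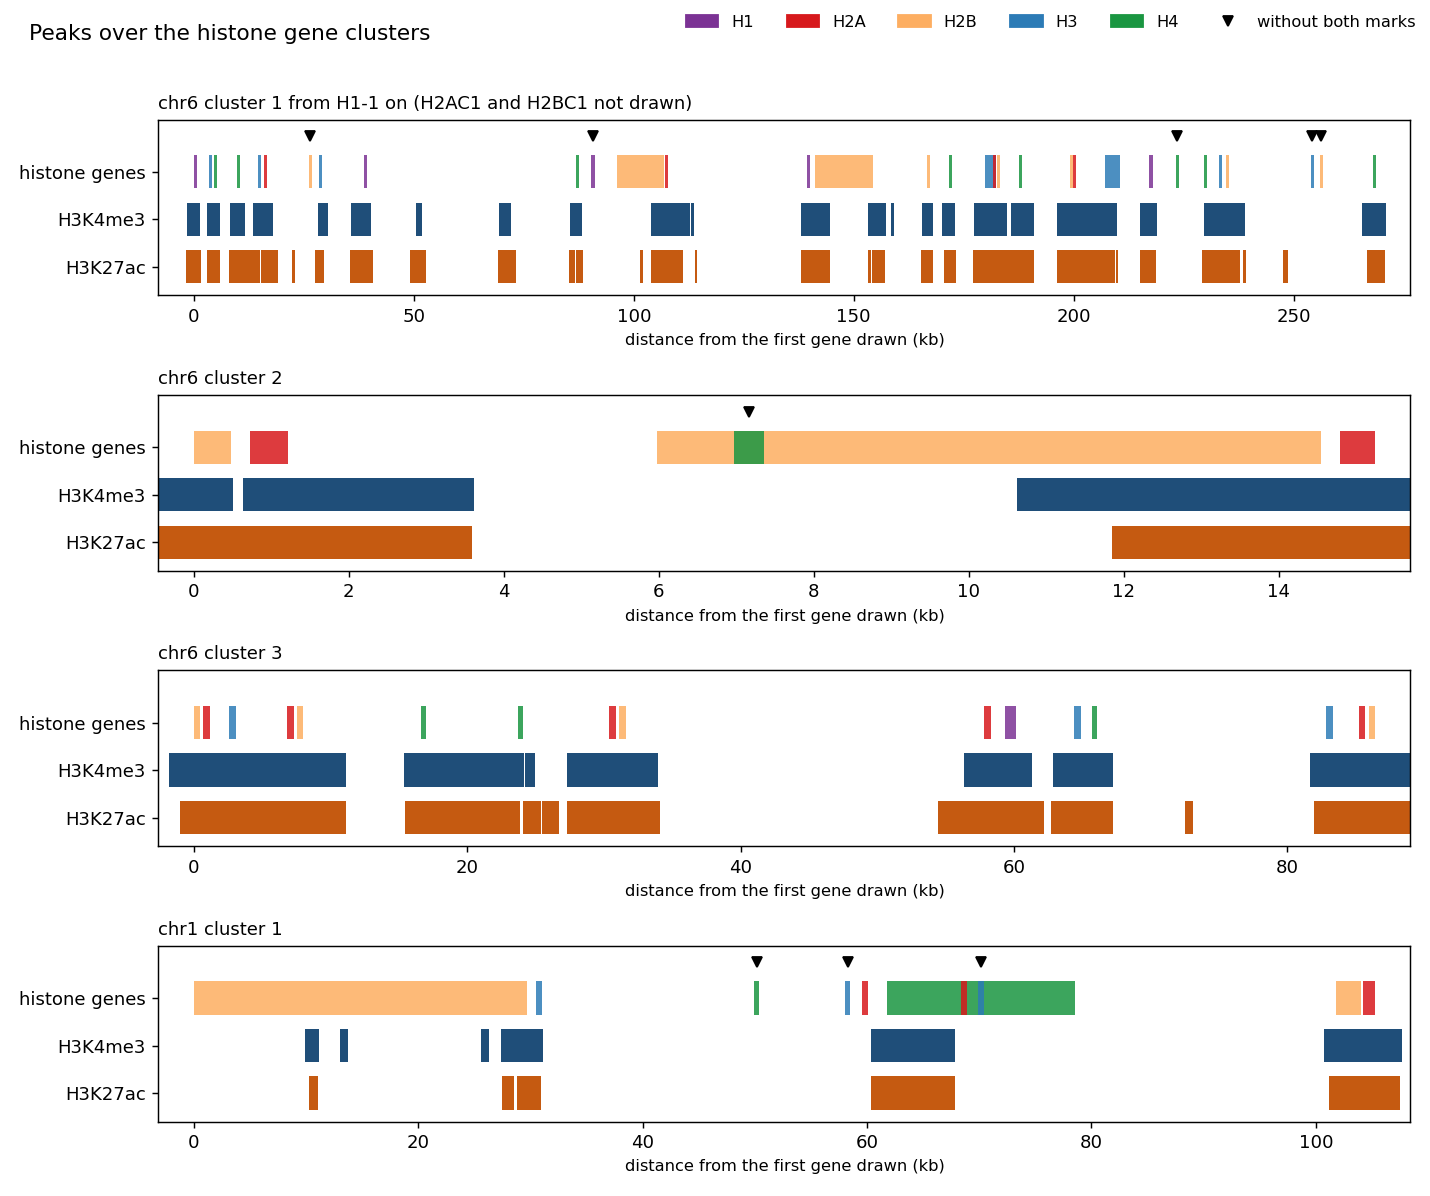
Histone genes, coloured by type, and the peaks of each mark in 4 clusters, with distance from the first gene drawn in kb along each axis and black triangles over genes without both marks. Peaks lie in blocks over groups of genes, all 16 genes of the third chromosome 6 cluster are in or beside blocks of both marks, and H2AC1, H2BC1 and the second chromosome 1 cluster (H2AC25 and H2BC26, inside 1 peak of each mark) are not drawn.

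The linker histone genes were marked except for the testis form. H1-1 to H1-5 encode somatic H1 proteins and 5 of 5 had both marks. H3K4me3 peaks were 2977 bp wide at H1-1, 4570 bp at H1-2, 3891 bp at H1-3, 6532 bp at H1-4 and 5027 bp at H1-5. H3K27ac peaks over these genes were 3424, 5213, 3551, 2952 and 7770 bp wide, and all 5 scored 3100. A further H3K27ac peak of 3496 bp, within 1 kb of H1-4, lay over the neighbouring H2BC5. H1-1 had the lowest H3K4me3 score of the 5, 2282, and the others had 3100. H1-6, which encodes the H1t protein of developing sperm, had no peak of either mark within 1 kb, and its nearest ones lay 2252 bp (H3K4me3) and 1987 bp (H3K27ac) away. Promoter windows of all 6 H1 genes held AAACACA, an element known from H1 promoters, and the marked H1-4 and unmarked H1-6 are set side by side below to show that they share it. Both sequences are the 130 bases before the gene start, 5′ to 3′ on the strand of the gene, from RefSeq on GRCh38.p14, and capitals mark AAACACA, the CCAAT box and the TATAA core on either strand.
H1-4, chr6:26156199-26156328, plus strand: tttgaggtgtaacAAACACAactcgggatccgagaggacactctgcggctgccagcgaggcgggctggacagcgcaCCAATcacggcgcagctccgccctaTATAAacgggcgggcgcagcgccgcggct
H1-6, chr6:26108136-26108265, minus strand: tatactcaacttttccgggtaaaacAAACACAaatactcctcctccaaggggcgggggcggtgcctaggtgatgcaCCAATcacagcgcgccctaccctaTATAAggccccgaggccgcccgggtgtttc

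H2A genes were marked in 16 of 17 cases, the exception being H2AC1. On chromosome 6, 11 of 12 had both marks, and on chromosome 1 all 5 did. The narrowest H3K4me3 at a marked H2A gene was 3354 bp, at H2AC11, and the widest was 12962 bp, in the peak at H2AC13 and H2AC14. The highest H3K27ac score was 3100, as in each of the other types, and was shared by 14 of the 16, and the exceptions were H2AC18 with 867 and H2AC19 with 903, both on chromosome 1.

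H2B genes had both marks at 15 of 18. On chromosome 6 it was 12 of 15, and H2BC1, H2BC3 and H2BC10 were the genes without both. All 3 on chromosome 1, H2BC18, H2BC21 and H2BC26, had both. H2BC6 had the narrowest and weakest H3K4me3 of the marked H2B genes, 2560 bp with a score of 1452, and an H3K27ac peak of 2764 bp with a score of 557. The other 14 scored 3100 for both marks.

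Head-to-head genes usually shared their peaks. Among genes with a known start, 11 neighbouring H2A and H2B pairs were read away from each other with starts 194 to 248 bp apart, and 10 of the 11 had both marks at both genes. In 9 pairs 1 H3K4me3 peak overlapped both genes and in 10 pairs 1 H3K27ac peak did. At H2BC11 and H2AC11, H3K4me3 was called as neighbouring peaks of 3354 and 2980 bp with a gap of 128 bp between the starts, under 1 H3K27ac peak of 6834 bp. The remaining pair, H2AC1 and H2BC1, had neither mark. Of the 46 genes outside these pairs, 37 had both marks.

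The H2BC8 and H2AC8 pair lay under the widest H3K27ac peak at any histone gene, chr6:26213323-26226459, 13137 bp wide, which reached H3C6 as well. It ranked 168 by width among 72894 H3K27ac peaks. The H3K4me3 peak at the pair was 7597 bp wide. The 232 bases before the start of H2AC8 are the whole stretch between the starts, with H2BC8 read leftward from its left end, and capitals mark the octamer, the CCAAT box and the TATAA core on either strand.
H2AC8, chr6:26216689-26216920, plus strand: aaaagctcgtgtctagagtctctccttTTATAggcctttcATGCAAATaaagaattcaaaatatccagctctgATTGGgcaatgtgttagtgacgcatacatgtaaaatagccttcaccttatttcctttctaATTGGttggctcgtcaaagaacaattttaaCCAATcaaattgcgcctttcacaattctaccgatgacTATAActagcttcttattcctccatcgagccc

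The octamer ATTTGCAT, an element known from H2B promoters and bound by OCT1, was common in both partners. Searched on either strand in the windows of 250 bases before to 50 bases after the start, it was in 15 of 20 H2B windows and 11 of 16 H2A windows, against 1.66% of 22155 windows of protein-coding genes. The windows of head-to-head partners overlap, so that 1 octamer can count for both. Counting -1 as the base before the start, it began on the gene strand between -50 and -40 in 9 of 20 H2B windows, against 0.0948% of all windows. Marked genes and unmarked genes both had it, as the 130 bases before the start show for H2BC8 and H2BC21, with both marks, and for H2BC10 and H2BC1, with neither. Capitals mark the octamer, the CCAAT box and the TATAA core on either strand, and the octamer begins at -48 in H2BC8, -46 in H2BC21, -45 in H2BC10 and -104 in H2BC1.
H2BC8, chr6:26216689-26216818, minus strand: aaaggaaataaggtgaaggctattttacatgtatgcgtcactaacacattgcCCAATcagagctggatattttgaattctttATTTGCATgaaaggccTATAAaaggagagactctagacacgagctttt
H2BC21, chr1:149886683-149886812, minus strand: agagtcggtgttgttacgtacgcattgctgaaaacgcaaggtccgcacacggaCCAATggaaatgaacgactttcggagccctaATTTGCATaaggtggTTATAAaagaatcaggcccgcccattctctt
H2BC10, chr6:26272801-26272930, plus strand: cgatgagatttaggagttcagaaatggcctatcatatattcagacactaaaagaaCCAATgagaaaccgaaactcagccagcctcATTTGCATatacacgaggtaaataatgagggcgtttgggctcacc
H2BC1, chr6:25726647-25726776, plus strand: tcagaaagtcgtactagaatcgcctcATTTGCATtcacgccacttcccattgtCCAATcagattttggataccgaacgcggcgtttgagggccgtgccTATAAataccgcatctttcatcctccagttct

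H3 genes had both marks at 10 of 13. On chromosome 6, 9 of 10 had both, with H3C8 as the exception, and on chromosome 1 H3C13 had both and H3C14 and H3C15 neither. The narrowest H3K4me3 was at H3C3, 2416 bp with a score of 994, beside an H3K27ac peak of 2219 bp with a score of 997. The widest was the 12962 bp peak at H3C10. The H3K27ac peak at H3C13 ended 42 bp short of its start, which the H3K4me3 peak covered.

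H4 genes had both marks at 11 of 14, 10 of 12 on chromosome 6 and 1 of 2 on chromosome 1. The narrowest H3K4me3 was at H4C3, 2549 bp with a score of 2356. H3K27ac within 1 kb of H4C3 was called as neighbouring peaks of 1491 and 1518 bp. The wider of these was the narrowest widest H3K27ac peak at any marked histone gene. The widest, 9259 bp, was at H4C7, which encodes a divergent H4 protein, in a peak that also covered H3C7 and H2BC9. H4C11 and H4C12 lay together in an H3K4me3 peak of 8815 bp and an H3K27ac peak of 8446 bp. Unmarked H4 genes were H4C6, H4C9 and H4C14.

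H4 promoters share the letters GGTCC, part of a site bound by HINFP. They began between -50 and -40 on the gene strand in 11 of 12 H4 windows, against 1.45% of all windows, and H4C7 was the exception. All 3 unmarked H4 genes had them there. The 70 bases before the start follow for H4C5 and H4C8, with both marks, and for H4C6 and H4C9, with neither, and capitals mark GGTCC and the TATAA core. The first of these begins at -46 in all 4, while the TATAA core stands at -29 in 3 of them and not in the H4C9 stretch.
H4C5, chr6:26204540-26204609, plus strand: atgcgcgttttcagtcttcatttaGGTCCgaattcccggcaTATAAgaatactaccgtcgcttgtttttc
H4C8, chr6:26285535-26285604, minus strand: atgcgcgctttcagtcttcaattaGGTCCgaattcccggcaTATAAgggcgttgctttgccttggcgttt
H4C6, chr6:26240323-26240392, plus strand: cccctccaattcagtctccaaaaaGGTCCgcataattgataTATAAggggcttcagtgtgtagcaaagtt
H4C9, chr6:27139212-27139281, plus strand: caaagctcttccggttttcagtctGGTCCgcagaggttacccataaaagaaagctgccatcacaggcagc

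**Figure D2:**
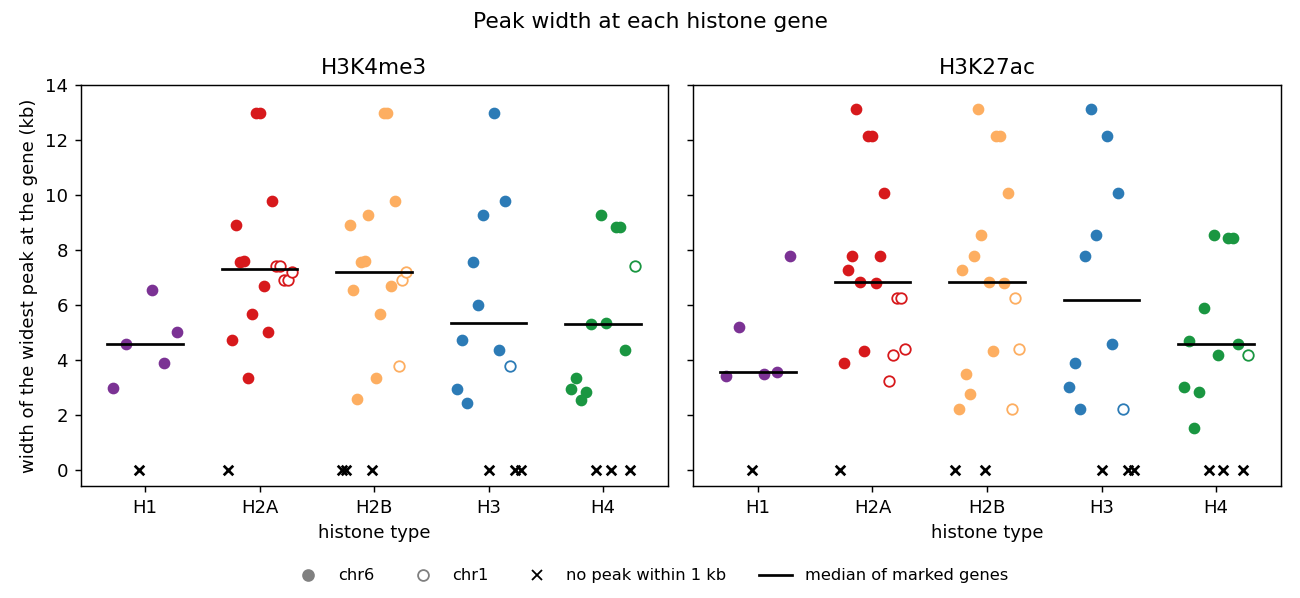
Width in kb of the widest peak within 1 kb of each histone gene, by type, for H3K4me3 (left) and H3K27ac (right), with filled points for chromosome 6, open points for chromosome 1, crosses for genes with no peak and bars at the median of marked genes. H2A and H2B genes have the highest medians for both marks (7307 and 7194 bp for H3K4me3, 6822.5 bp each for H3K27ac), and genes that share a peak repeat its width.

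By type, then, the shares with both marks ran from 10 of 13 H3 genes (76.9%) and 11 of 14 H4 genes (78.6%) through 83.3% of H1 and of H2B genes to 16 of 17 H2A genes (94.1%). Their exact 95% intervals all overlap: 46.2 to 95 for H3, 49.2 to 95.3 for H4, 35.9 to 99.6 for H1, 58.6 to 96.4 for H2B and 71.3 to 99.9 for H2A. Without the 6 near-identical copies the order changed, to 10 of 11 H3 genes (90.9%), 10 of 12 H4 genes (83.3%), 5 of 6 H1 genes (83.3%), 15 of 18 H2B genes (83.3%) and 14 of 15 H2A genes (93.3%). Median H3K4me3 widths were 4570 bp for H1, 7307 bp for H2A, 7194 bp for H2B, 5342.5 bp for H3 and 5287 bp for H4. For H3K27ac they were 3551, 6822.5, 6822.5, 6185 and 4584 bp in the same order. The differences were not tested.

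The widest H3K4me3 peak at histone genes, chr6:27805628-27818589, opened the third chromosome 6 cluster and held 5 genes: H2BC13, H2AC13, H3C10, H2AC14 and H2BC14. It was 12962 bp wide and ranked 43 among 32043 H3K4me3 peaks. H3K27ac covered the same 5 genes in a peak of 12155 bp, which ranked 215. At the other end of that cluster, H3C12, H2AC17 and H2BC17 shared an H3K4me3 peak of 9772 bp and an H3K27ac peak of 10073 bp. In the first cluster H4C7, H3C7 and H2BC9 shared an H3K4me3 peak of 9259 bp and an H3K27ac peak of 8556 bp. H3C4, H2AC7 and H2BC7 shared an H3K4me3 peak of 7577 bp and an H3K27ac peak of 7786 bp, and H2BC4 and H2AC6 shared 8888 and 7256 bp. Of the 36 H3K4me3 peaks 19 were in the widest 10% of their list (52.8%), and of the 40 H3K27ac peaks 24 were (60%).

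The 11 genes without both marks lay in several places. H2AC1 and H2BC1, which encode the testis histones TH2A and TH2B, stood apart at the edge of the first chromosome 6 cluster. Their nearest H3K4me3 peaks were 73480 and 74194 bp away and their nearest H3K27ac peaks 41588 and 40805 bp away. H3C8 and H2BC10 were neighbours near the other edge. Their nearest H3K4me3 peaks were 11199 and 9200 bp away and their nearest H3K27ac peaks 5195 and 7208 bp away. H4C6, between the marked H1-3 and H4C7, was 4503 bp from H3K4me3 and 4635 bp from H3K27ac. H4C9 lay inside the annotated span of H2BC12, 3266 bp from the H3K4me3 peak at the start of that gene and 3377 bp from the H3K27ac peak of H2AC11 on its other side.

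H2BC3 was the gene nearest to the 1 kb limit. The H3K27ac peak over H3C3 came within 770 bp of H2BC3, and the H3K4me3 peak there stopped 1432 bp away. The next gene outside the limit was H3C14, at 1861 bp from H3K4me3 and 1848 bp from H3K27ac. Within 2.5 kb, 61 of the 68 genes had both marks.

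Chromosome 1 holds copies of a repeated segment, and no peak covered the gene starts in them. H3C14 and H3C15, H2AC18 and H2AC19, and H4C14 and H4C15 are 3 pairs whose promoter windows share 98.5%, 99.6% and 100% of their stretches of 36 bases. None of these 6 starts lay in a peak of either mark. Of the other 57 genes with a known start, 49 had it in an H3K4me3 peak and 48 in an H3K27ac peak. Between the copies, 1 H3K4me3 peak, chr1:149843069-149850488, 7420 bp wide, ended 319 bp from the start of H2AC18 and 573 bp from that of H2AC19. It put H2AC18, H2AC19 and H4C15 among the marked genes, H4C15 through the far part of a span of 16753 bp whose start was 10671 bp away.

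H3K27ac followed the same outline there, in peaks of 3220 and 4195 bp with a gap of 16 bp. The 130 bases before the starts of H3C14 and H3C15 show how alike the copies are: shifted by 4 bases, 126 of 126 are identical. Capitals mark the CCAAT box and the TATAA core on either strand. Short reads that lie wholly in such shared stretches cannot be assigned to 1 copy. The sources used here do not say how these reads were treated, and their part in the missing peaks was not tested. The marks at these 6 genes are therefore uncertain, and without them 54 of 62 genes had both.
H3C14, chr1:149841209-149841338, minus strand: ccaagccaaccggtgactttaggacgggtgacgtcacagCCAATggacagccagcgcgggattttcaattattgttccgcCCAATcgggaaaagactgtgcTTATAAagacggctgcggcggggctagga
H3C15, chr1:149852478-149852607, plus strand: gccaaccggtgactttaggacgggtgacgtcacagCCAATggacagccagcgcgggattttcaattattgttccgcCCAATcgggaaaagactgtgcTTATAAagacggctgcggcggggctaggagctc

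Around the gene start the marks reached far to both sides. Of 63 genes with a start in the promoter table, 49 had the start in an H3K4me3 peak (77.8%), against 67% of 15812 protein-coding genes, and 48 had it in an H3K27ac peak (76.2%), against 51.3%. Both marks covered 48 of the 63 starts (76.2%), against 49.9%. From a covered start, H3K4me3 extended a median of 2544 bp upstream and 3466 bp downstream, against 1222 and 2092 bp over all protein-coding genes. H3K27ac extended 2730 and 3084.5 bp, against 791 and 1192 bp. At 2 kb upstream, H3K4me3 still covered 55.6% of the histone genes and 17.9% of all protein-coding genes, and H3K27ac 63.5% and 11.8%. Neighbouring histone genes lie a few kb apart, and their part in these values was not tested.

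**Figure D3:**
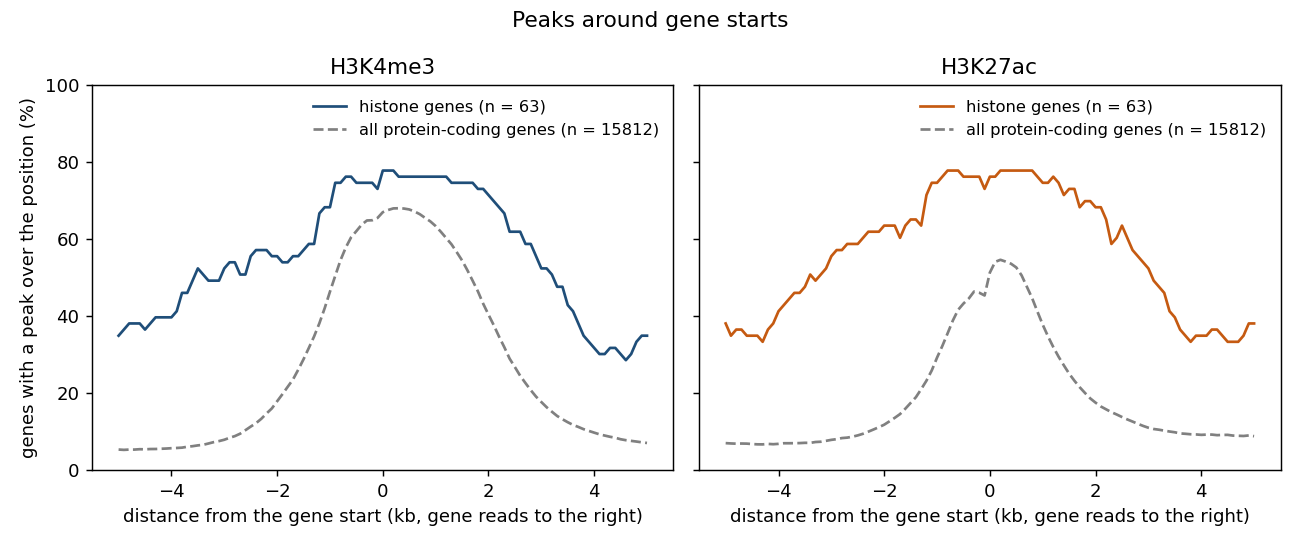
Share of genes (%) with a peak over each position from 5 kb upstream to 5 kb downstream of the start, for 63 histone genes (solid) and 15812 protein-coding genes (dashed), H3K4me3 left and H3K27ac right. The histone curves are above the others throughout, and at 5 kb upstream they are at 34.9% against 5.37% for H3K4me3 and 38.1% against 7.03% for H3K27ac.

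The promoters shared a compact layout. TATAA, the core of the TATA box bound by TBP, began between -35 and -25 on the gene strand in 49 of 67 histone windows (73.1%), against 4.69% of 22155 windows. On either strand and anywhere in the window, it was in 91.0% of histone windows, against 16.5% of all, and its longer form TATAAA in 65.7%, against 9.47%. CCAAT, bound by NF-Y, was in every H1, H2A, H2B and H3 window and in 3 of 12 H4 windows, against 34.6% of all windows. AAACACA was in 6 of 6 H1 windows, 1 of 16 H2A, 2 of 13 H3 and no H2B or H4 window, against 4.42% of all. Anywhere in the window and on either strand, GGTCC was in 31.3% of histone windows, against 50.6% of all.

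These letters were found in marked and in unmarked genes. TATAA between -35 and -25 was in 41 of 56 windows of genes with both marks (73.2%) and in 7 of 10 of genes with neither. CCAAT was in 48 of 56 and in 9 of 10, and ATTTGCAT in 23 of 56 and in 3 of 10. The longer TATAAA was in 39 of 56 windows of genes with both marks (69.6%) and in 4 of 10 of genes with neither (40%), and GGTCC in 18 of 56 and in 3 of 10. AAACACA was in 6 of 56 (10.7%) and in 3 of 10 (30%). With 10 windows in the smaller group the shares are rough, and a match says only that the letters are present.

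**Figure D4:**
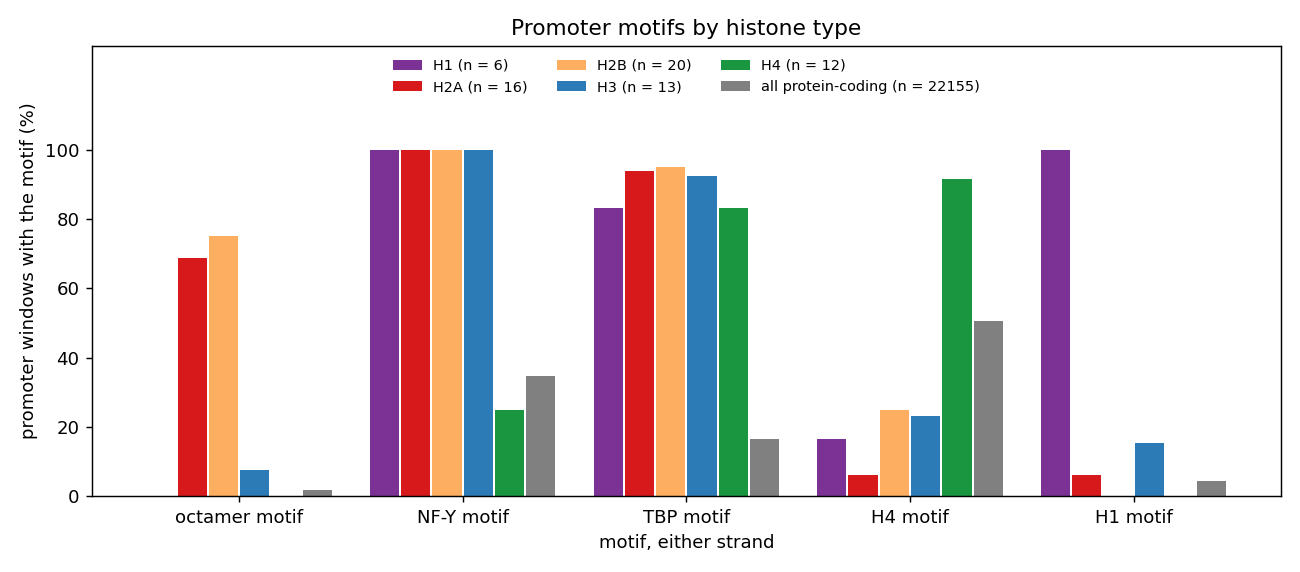
Share (%) of promoter windows of 300 bases with each motif on either strand, by histone type and for all protein-coding genes (grey), where the NF-Y motif is CCAAT, the TBP motif TATAA, the H4 motif GGTCC and the H1 motif AAACACA. The octamer motif is in 68.8% of H2A and 75% of H2B windows, the H1 motif in all H1 windows, and the H4 motif in 91.7% of H4 windows.

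Other genes between the histone genes were marked less evenly. Of 8 protein-coding genes within the clusters that are not in the set, 4 had both marks: TRIM38, a ubiquitin ligase gene, HFE, an iron regulator gene, FCGR1A, an Fc receptor gene, and LOC124904411. The last pair overlaps the span of H2BC18 and all their peaks were also at it. TRIM38 had an H3K4me3 peak of 4428 bp and an H3K27ac peak of 3583 bp. SLC17A1, whose span holds H2AC1 and H2BC1, SLC17A4 and SLC17A3, genes of a phosphate transporter family, had H3K27ac only, with top scores of 480, 480 and 53.9, and SLC17A2 had neither. Of 13 histone pseudogenes there, 8 had both marks within 1 kb, in peaks that were all also at histone genes of the set, and 5 had neither.

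Histone genes outside these clusters carried both marks less often, a difference that was not tested. Of 28 replication-independent or variant histone genes found in the gene table, 11 had both marks, 1 had H3K4me3 only and 16 had neither. Over all protein-coding genes 68.2% had both marks. Among those with both were H1-10, H2AX, H2AZ1, H2AZ2 and H2AJ, and H3-7 had H3K4me3 only, 644 bp wide. Those with neither included H1-7, H1-8, H2AP and H2AB1, of which H1-7 and H1-8 are known from germ cells. At marked genes of this list the median widths were 3844 bp for H3K4me3 and 2510 bp for H3K27ac. H2AZ1, for the variant H2A.Z, had an H3K4me3 peak of 8723 bp and an H3K27ac peak of 1693 bp. H3-3A, which encodes the replacement histone H3.3 and was picked after its values were seen, had 7592 and 3290 bp.

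A list of factors for histone gene expression and related steps was also examined. All 28 listed factors had both marks within 1 kb of the gene, against 68.2% of all protein-coding genes. Within 1 kb of the gene start only, where a gene without a known start cannot count, 23 had both. The list also holds the histone chaperone genes NASP, ASF1A, ASF1B, CHAF1A and CHAF1B, and ATM. Their median widths were 4264 bp for H3K4me3 and 2254.5 bp for H3K27ac, against 3362 and 2120.5 bp over all marked protein-coding genes. NPAT had an H3K4me3 peak of 5079 bp and an H3K27ac peak of 3279 bp, which it shares with its neighbour ATM. CASP8AP2, the FLASH protein gene, had 1776 and 1598 bp. HINFP, the H4 promoter factor, had 3551 and 821 bp, and POU2F1, which encodes OCT1, had 2761 and 3402 bp. SLBP and LSM11 were picked after their values were seen. SLBP, which binds the stem-loop, had 6129 and 3565 bp with an H3K27ac score of 3100, and LSM11, of the snRNP that processes the messages, had an H3K27ac score of 84.8.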

How the data were processed

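H3K4me3 and H3K27ac were measured in HCC1599 cells, 1 library each, with 1 input. Formaldehyde-fixed chromatin was cut with sonication plus micrococcal nuclease, per the labels' protocols. Per the submitters' processing notes, Bowtie2, MACS 1.4 and hg38 were used, and parameters are not given in the sources used here. The authors deposited a peak list per mark with a score per peak, of unstated unit, from 30 upward, used only to describe and filter peaks within a list. From chromosomes 1 to 22 and X came 32043 H3K4me3 and 72894 H3K27ac peaks, with positions counted from 1. The input was not analysed here.

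Genes and promoter windows came from RefSeq, GRCh38.p14, and 63 of the 68 genes matched a window (not H4C1, H4C3, H2AC12, H3C11 or H3C12). Where a gene had several starts, the outermost was used for starts and all windows for motifs. A mark was called where a peak overlapped a gene or the 1 kb beside it by at least 1 bp. The members and lists were chosen with earlier results of these data known. The motif positions, the 1000 bp length limit and the 3 repeated pairs were chosen after values were seen. H2AW and H2BU1 of the variant list are in the set under other names, H2AL1Q is a pseudogene, and H4-16 matched no symbol. The genes named were those without both marks, extremes in each type, testis forms, genes sharing sequence, small clusters, and the first of each state in lists, except 1 that is not reported here. Calls were checked against bedtools 2.31.1 and differed at 0 genes, and tested on simulated data. Python 3.11.15, pandas 2.3.3, numpy 2.4.6 and scipy 1.17.1 were used.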

Additional observations from a re-analysis of the deposited data

How the results depend on the processing

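Each count of marked genes was recomputed for the set, by chromosome and by histone type, for other genes in the clusters and for both lists. The windows were 0 bp, 500 bp and 2.5 kb around the gene, or 1 kb around the gene start only. Other settings were scores of at least 50 or 100, equal list lengths and 200 bp of overlap. Together with the median widths, these settings gave 112 values, of which 111 stayed within 1.5 times the count or within the interval of the median. That limit was wide. Where most genes were marked already, 1.5 times the count exceeds the number of genes, so only a fall could pass it. The score limits could change little, since 53 of 57 genes with H3K4me3 and 51 of 58 with H3K27ac had a top score of 3100 or above. Genes with both marks numbered 51 to 61 of 68 over these settings, the lowest within 1 kb of gene starts only, where 5 genes have no start. The median H3K27ac width was 7431 bp when peaks less than 500 bp apart were merged, since neighbouring peaks then count as one. Leaving out the 6 near-identical copies, an alternative chosen after seeing the data, gave 54 of 62 genes with both marks and changed the order of the chromosomes and of the histone types. No paired analysis was possible because each mark has 1 library. Read depth and local copy number are unknown here, and reads from repeated copies were not examined.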

Other observations

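In the first chromosome 6 cluster, peaks away from the histone genes were narrower at the median than those at them. There 19 H3K27ac peaks lay more than 1 kb from every histone gene of the set, 591 bp wide and scoring 53.9 at the median, and 13 of them were within 1 kb of another protein-coding gene. The 24 H3K27ac peaks at histone genes of that cluster had medians of 3234 bp and 3100. For H3K4me3, 6 peaks lay away from the histone genes, with a median width of 2025.5 bp, against 4570 bp for the 19 at them. Their median score was 1640, against 3100 for those at histone genes, and 3 of the 6 scored 3100 or above, against 0 of the 19 H3K27ac peaks away from histone genes. In the third chromosome 6 cluster 2 H3K27ac peaks lay away from the genes, with a median score of 54.5, and every H3K4me3 peak there was at a histone gene.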
